A study of Caenorhabditis elegans with 2 samples.

Results

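The genes rpr-1, mrpr-1, yrn-1 and rncs-1 of the nematode Caenorhabditis elegans are 4 of 46890 annotated genes and were chosen by name. They encode the RNA subunit of RNase P, the RNA subunit of RNase MRP, the Y RNA and a long hairpin-forming non-coding RNA. All peaks of the SNPC-4 ChIP-seq lists with a summit within 1000 bp of one of these genes were collected, which gave 22 peaks over 4 lists. Of these, 3 were in the optimal list, 7 in the pooled relaxed list, 5 in the relaxed list of replicate 1 and 7 in that of replicate 2.

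SNPC-4 belongs to SNAPc, which stands for small nuclear RNA activating protein complex, and contacts DNA within it. SNAPc binds a proximal sequence element upstream of small nuclear RNA (snRNA) genes. In human cells the RNase P, RNase MRP and Y RNA genes are read by RNA polymerase III from the same kind of upstream promoter as some snRNA genes, in which a TATA box stands beside the SNAPc element. RNase P cuts the 5' leader from tRNA precursors, RNase MRP cuts ribosomal RNA precursors, and the Y RNA is held by the Ro protein, which is ROP-1 in this species. The RNA of rncs-1 is known in this species for a long double-stranded stem that competes for the nuclease Dicer, and for a higher level in starved worms.

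Binding was measured in whole young adults of strain OP179, of pooled male and female sex and of unknown age. The strain carries the unc-119(ed3) mutation and wgIs179, an insertion targeting snpc-4. The labels describe the ChIP target as eGFP-tagged SNPC-4 and list the antibody under snpc-4, and they give 1 group of 2 biological replicates with fragments of 150 to 350 bp. No other genotype, stage or treatment was compared, a control library was not analysed here, and whole animals do not show in which tissue a site was bound. The optimal list, which the authors reduced from the relaxed lists by the irreproducible discovery rate (IDR), held 1781 peaks with signal values of the authors' caller from 31.1 to 1801 and a median of 42.6. The pooled relaxed list held 30000 peaks (median 7.38), that of replicate 1 held 20730 (median 4.17) and that of replicate 2 held 30000 (median 5.53). Signal values were compared within a list, and ranks, in which 1 is the strongest peak, were set side by side across lists. The exception is the ratio of signal between the replicates, which was read only beside the same ratio at other optimal peaks. Read depth is unknown, so no error of a single signal value is given.

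A strong peak stood at the 5' end of rpr-1, mrpr-1 and yrn-1 in every list, and none stood at rncs-1. In the optimal list 3 of the 4 genes had a summit within 1000 bp, where 13.2% of all genes did. The same 3 had a summit within 300 bp of the 5' end, where 5.86% of all genes did. The share among the 8058 genes of the annotation's other non-coding RNA class, to which all 4 genes belong, was 6.12% within 1000 bp. In the relaxed lists all 4 genes had a summit within 1000 bp, and so did 66.8% of all genes in the pooled list, 62.7% in replicate 1 and 69.1% in replicate 2. At these shares the presence of a relaxed peak alone says little about a gene, and the signal and place of each peak are given instead.

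**Figure D1:**
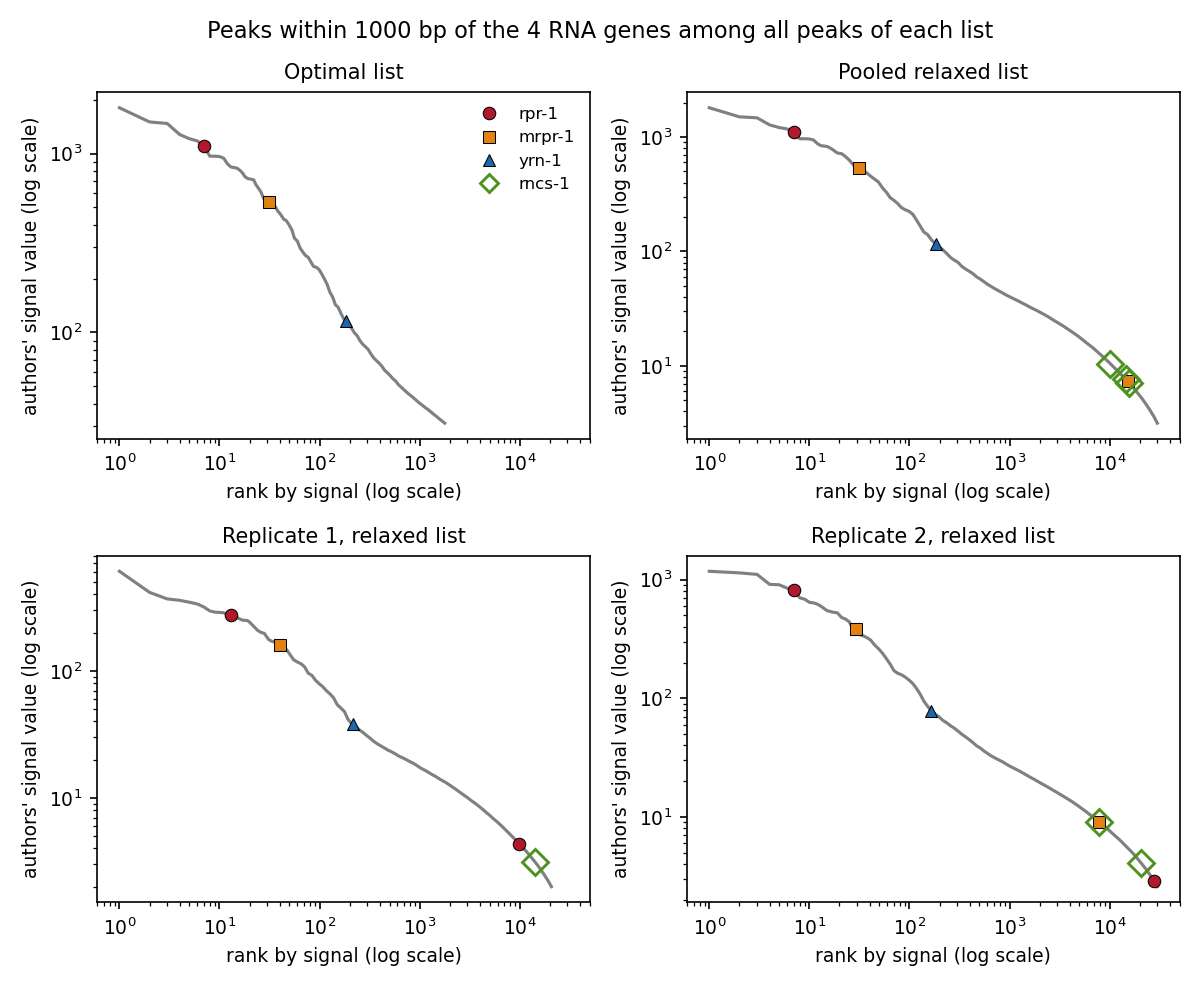
Signal value against rank in each of the 4 lists, both on log scales, with the whole list as a grey line and each peak within 1000 bp of the 4 genes as a symbol. The strongest peaks of rpr-1, mrpr-1 and yrn-1 lie at ranks 7, 31 and 183 of the optimal list, and the peaks around rncs-1 lie at ranks 7878 to 20766 of the relaxed lists.

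The RNase P RNA gene rpr-1 (WBGene00045238, chromosome I, 13463955 to 13464207, plus strand, 253 bp, 1 exon) held the strongest of these peaks. It lies within an intron of the protein-coding gene ints-8, which is named for a subunit of the Integrator complex, on the opposite strand. The signal was 1101 in the optimal list (rank 7) and in the pooled list, 273 in replicate 1 (rank 13) and 822 in replicate 2 (rank 7). In each list it was thus among the 13 strongest peaks, and it stood 25.9 times above the median of the optimal list. The peak spanned 13463736 to 13464157 and its summit lay at -19 bp, upstream of the gene's first base. The 5' end of ints-8 was 6435 bp from that summit and that of the nearest other gene, 21ur-15556, was 3502 bp away, so no other annotated 5' end lay within 1000 bp. Among the 341 genes of the same class with an optimal peak within 300 bp of the 5' end, rpr-1 was 4th by signal. A peak was counted for every such gene, even where it lay nearer to the 5' end of another gene. Peaks of SL RNA genes are thus among those above rpr-1, and the order does not rank each gene's own binding.

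The RNase MRP RNA gene mrpr-1 (WBGene00045095, chromosome II, 7200233 to 7200418, plus strand, 186 bp, 1 exon) overlapped no other gene. Its peak had a signal of 536 in the optimal list (rank 31), 160 in replicate 1 (rank 40) and 380 in replicate 2 (rank 29). This placed mrpr-1 within the 40 strongest peaks of each list, below rpr-1 in all of them. The peak ran from 7200037 to 7200392 and had its summit at -30 bp. The protein-coding gene pcrg-1 starts 316 bp downstream of the 5' end of mrpr-1 on the same strand, so the summit lay 346 bp upstream of pcrg-1 as well. The 5' end of E04F6.6, on the other strand, was 638 bp from it.

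The Y RNA gene yrn-1 (WBGene00006967, chromosome IV, 7499508 to 7499612, plus strand, 105 bp, 1 exon) had the weakest of the 3 peaks. The signal was 115 in the optimal list (rank 183), 37.8 in replicate 1 (rank 216) and 78.1 in replicate 2 (rank 166). It stood 2.71 times above the median of the optimal list, with 1598 weaker peaks there. In the optimal list the peak was narrow, at 198 bp from 7499387 to 7499584 against a median width of 324 bp, and its summit was at -26 bp. It was 141 bp wide in replicate 2 (median 284 bp) but 360 bp wide in replicate 1, that list's median width. The gene lies within an intron of the protein-coding gene F55G1.15 and overlaps the non-coding RNA gene F55G1.20, both on the opposite strand. The summit fell inside F55G1.20, 161 bp downstream of its 5' end, and 1632 bp from the 5' end of egas-4, the nearest gene start on the other side. By the same order of signal as above, yrn-1 was 78th of 341.

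The gene rncs-1 (WBGene00023069, chromosome X, 1011501 to 1012347, plus strand, 847 bp, 2 exons) had no peak in the optimal list. The nearest optimal summit lay 23732 bp from its 5' end, with a signal of 34.9 and rank 1379. The pooled relaxed list held peaks of 7.65 at 770 bp upstream of the 5' end (rank 14437), 7.06 at 254 bp upstream (rank 15682) and 10.5 at 1349 bp downstream (rank 10150). Each of these is within 1.5 times the list's median of 7.38. Replicate 1 held 3.12 at 1788 bp downstream, and replicate 2 held 9.08 at 810 bp upstream and 4.07 at 1386 bp downstream. The downstream summits of all 3 lists fell in an exon of nlf-1, a protein-coding gene on the opposite strand whose 3' end faces rncs-1. No summit lay inside rncs-1 or within 250 bp of its 5' end in any list. Of the 36-base words within 200 bp of the 5' end, 94.5% occurred once in the genome, against 100% at the other 3 genes, so most of this sequence could be placed uniquely by reads of that length.

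**Figure D2:**
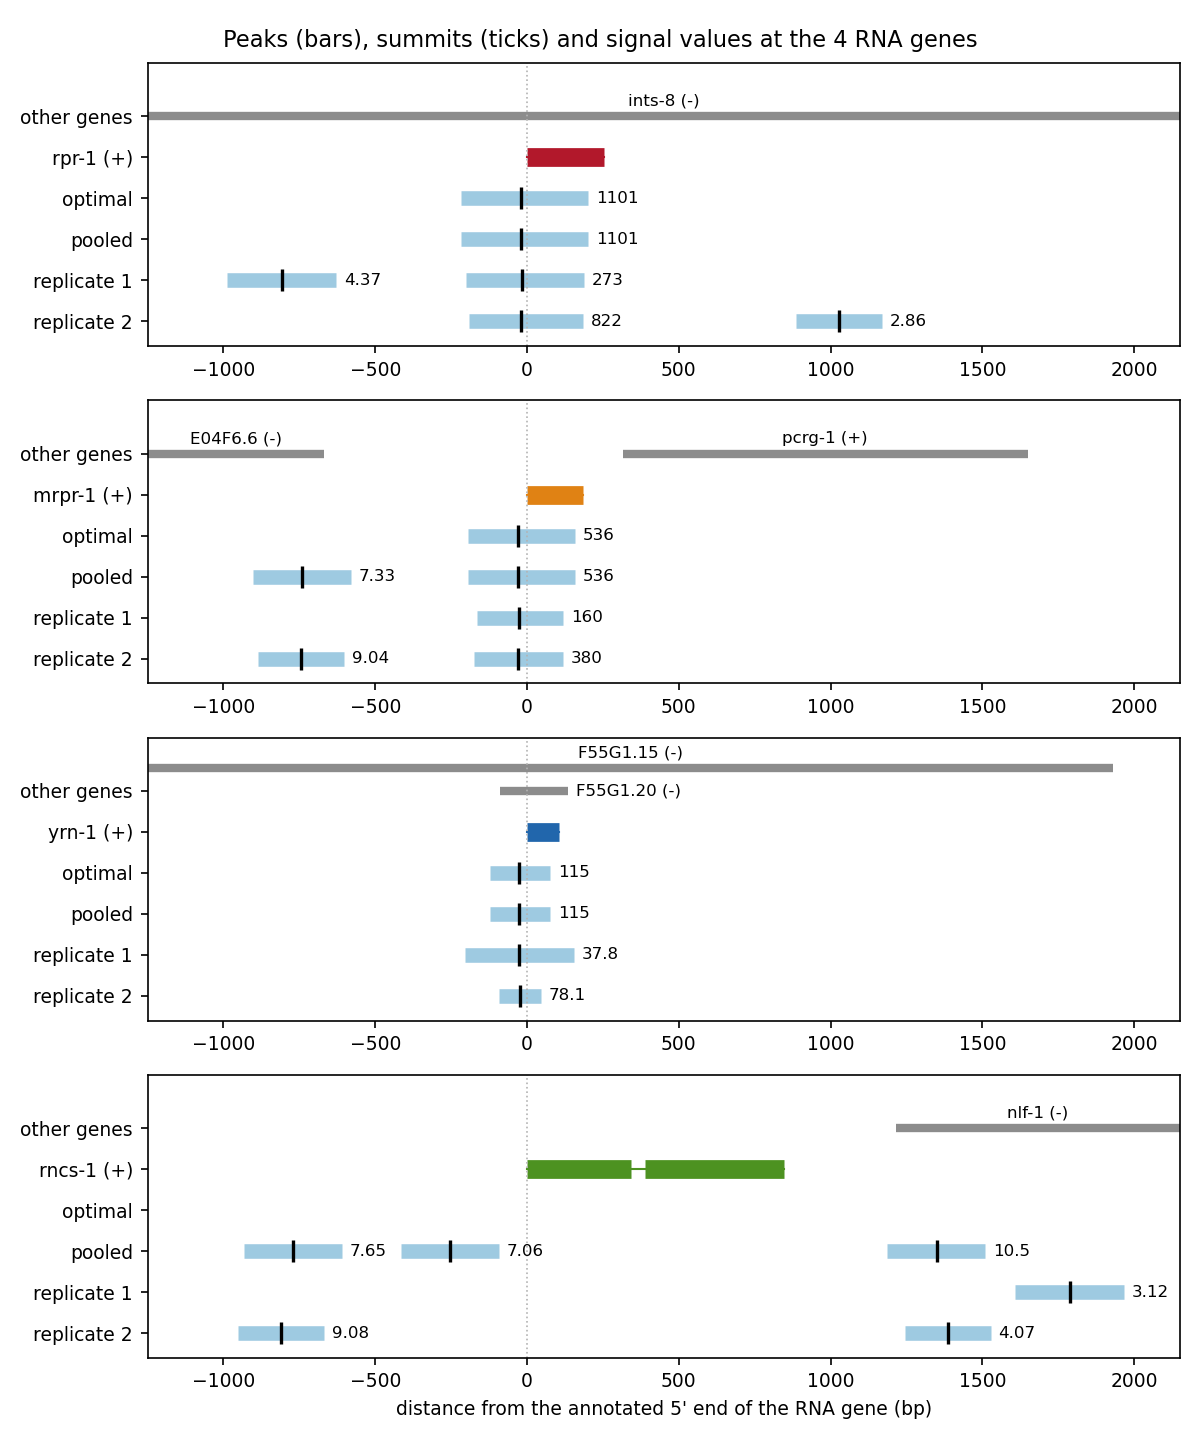
Peaks of the 4 lists around each gene, by distance in bp from its annotated 5' end. Blue bars are peak intervals, black ticks summits and numbers the signal values, with the gene (coloured, plus strand) and other genes (grey, strand in brackets) above; the summits of rpr-1, mrpr-1 and yrn-1 line up between 30 and 15 bp upstream in all lists, and rncs-1 has scattered peaks of 10.5 or less.

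The replicates placed the 3 strong peaks at nearly the same bases. The summit of rpr-1 lay 4 bp from the optimal summit in replicate 1 and 1 bp in replicate 2, that of mrpr-1 5 and 0 bp, and that of yrn-1 1 and 3 bp. Over the 200 strongest optimal peaks the median distances were 7 bp in replicate 1 and 3 bp in replicate 2. All 3 peaks were among the strongest 1781 of both replicates, as were all 200 of those. The signal in replicate 2 was 3.01 times that in replicate 1 at rpr-1, 2.38 times at mrpr-1 and 2.06 times at yrn-1. The median of this ratio was 1.87 over the 1728 optimal peaks with a summit within 200 bp anywhere in both replicates' whole relaxed lists, with quartiles of 1.25 and 2.69. Over the 200 strongest optimal peaks the median was also 1.87, with quartiles of 1.45 and 2.31. The ratio of yrn-1 lay between the quartiles of both sets, that of mrpr-1 above the upper quartile of the 200 alone, and that of rpr-1 above both. The order of the 3 genes was the same in both replicates.

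The remaining 10 peaks around the 4 genes lay at 7 places, when summits within 200 bp of each other were joined, and none of these places had a summit in both replicates. Their signal ranged from 2.86 to 10.5. At rpr-1, replicate 1 alone held 4.37 at 807 bp upstream and replicate 2 alone held 2.86 at 1028 bp downstream, both within the ints-8 intron. At mrpr-1, the pooled list held 7.33 and replicate 2 held 9.04 at 741 and 744 bp upstream, which is in an exon of E04F6.6 and 73 and 76 bp from that gene's own 5' end. No such peak lay near yrn-1.

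The summits of the 3 genes lay closer to the 5' end than most summits at snRNA, snoRNA and spliced leader (SL) RNA genes. They stood 19, 30 and 26 bp upstream at rpr-1, mrpr-1 and yrn-1. The median was 58 bp upstream over the 8 of 22 snRNA genes of 101 or 102 bases, the commonest length of that class, that had an optimal peak (-85 to -25 bp), and 48 bp upstream over the 35 other snRNA genes with one (quartiles -54.0 and -36.0). It was -53.0 bp for 17 SL RNA genes, which give the leader that is joined onto many mRNAs, and -44.0 bp for 84 small nucleolar RNA (snoRNA) genes. At 119 tRNA genes, whose polymerase III promoter lies inside the gene, the median was 0.0 bp, and at 862 protein-coding genes it was -156.0 bp. In the range from -30 to -19 bp, which the 3 genes themselves set, lay the summits of 1 of the 8 snRNA genes of 101 or 102 bases and 5 of the 35 other snRNA genes. The same held for 2 of the SL RNA genes, 8 of the snoRNA genes and 17 of the 119 tRNA genes. Summits still nearer to the gene are not in these counts. The upper quartile was -36.0 bp for the other snRNA genes, -37.0 bp for the SL RNA genes and -26.75 bp for the snoRNA genes, so part of the snoRNA summits lay as near as those of the 3 genes. These are distances from annotated 5' ends and carry no test.

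**Figure D3:**
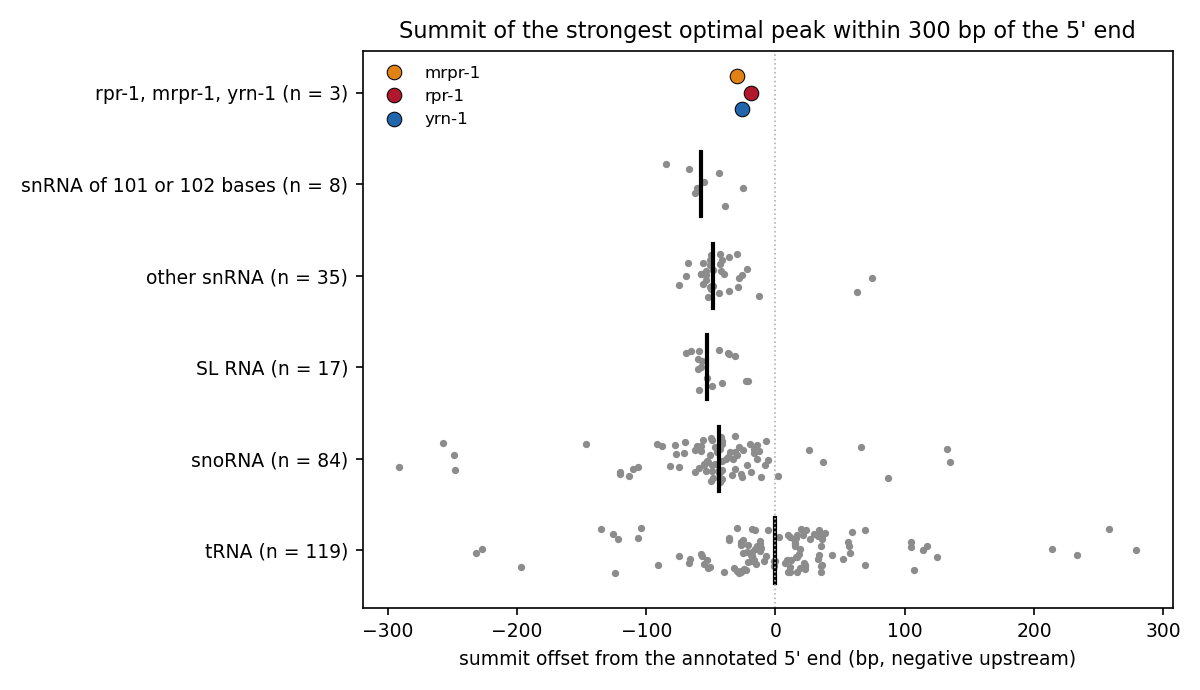
Summit of the strongest optimal peak within 300 bp of the annotated 5' end, in bp (negative is upstream), for rpr-1, mrpr-1 and yrn-1 and for other small RNA genes as grey points with their median as a black bar. The 3 genes fall at -30, -26 and -19 bp, to the right of the medians of the snRNA, SL RNA and snoRNA genes and to the left of that of the tRNA genes.

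The sequence upstream of these genes was read next, since the rule did not use it. A 25 bp weight matrix was learned from the 100 bp before the 5' ends of 144 genes with an optimal peak (snRNA, snoRNA or SL RNA), none of which is one of the 4 genes; it was anchored on the most enriched word of 8 bases, CGGAACCC. The word stood upstream of 25.7% of those 144 genes and in 1.39% of windows of the same length that end 1000 bp upstream of them. It was found, on either strand, upstream of 0.166% of all genes. The upstream sequences of mrpr-1, yrn-1 and rncs-1 follow, from 100 bp before to 10 bases into each gene (RefSeq genome, WBcel235, which is ce11, plus strand). Capitals mark the best match to the matrix and, behind it, the motif TATATA with any overlapping copy, or for rncs-1 only the motif TATAA. W05B2.8, the 101/102-base snRNA gene with the strongest peak, and sls-2.8, an SL RNA gene, are shown for comparison and were chosen after their values were seen.
mrpr-1, chrII:7200133-7200242: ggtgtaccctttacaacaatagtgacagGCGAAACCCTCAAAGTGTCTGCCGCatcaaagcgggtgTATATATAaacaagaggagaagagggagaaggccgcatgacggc
yrn-1, chrIV:7499408-7499517: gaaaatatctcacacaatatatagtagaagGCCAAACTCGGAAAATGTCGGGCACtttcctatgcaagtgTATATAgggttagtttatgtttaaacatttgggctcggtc
W05B2.8, chrIII:10989579-10989688: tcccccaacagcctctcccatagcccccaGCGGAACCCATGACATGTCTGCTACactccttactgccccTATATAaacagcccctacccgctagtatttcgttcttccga
sls-2.8, chrIII:12250365-12250474: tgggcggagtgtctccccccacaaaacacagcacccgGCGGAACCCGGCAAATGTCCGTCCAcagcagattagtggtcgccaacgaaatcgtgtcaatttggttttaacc
rncs-1, chrX:1011401-1011510: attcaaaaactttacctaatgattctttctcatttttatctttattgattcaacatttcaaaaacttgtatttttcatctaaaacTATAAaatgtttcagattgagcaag

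The 3 genes with a strong peak carried the element and a TATA motif, and rncs-1 carried no match of that kind upstream of its annotated 5' end. The matrix score was 32.6 at rpr-1, which 0.0235% of 46881 genes, itself included, reached in the same 100 bp, 25.5 at mrpr-1 (0.194%) and 22.5 at yrn-1 (0.252%). At rncs-1 the best score was -16.9, which 90.4% of genes reached or passed. An arm of a 49 bp inverted repeat lay in that window, from -75 to -27 bp. Whether the rncs-1 transcript begins and ends at the annotated bases was not tested, so its window may not be a promoter. At rpr-1 the word of 8 bases was present without a mismatch, at mrpr-1 with 1 mismatch and at yrn-1 with 3. The closest match at rncs-1 also had 3 mismatches, as few as 81.8% of genes had, so the word does not separate yrn-1 from rncs-1. The sites were on the gene's own strand and began 70, 72 and 70 bp upstream of the 5' ends of rpr-1, mrpr-1 and yrn-1, where the median over the 100 sites used to learn the matrix was -63.0 bp.

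**Figure D4:**
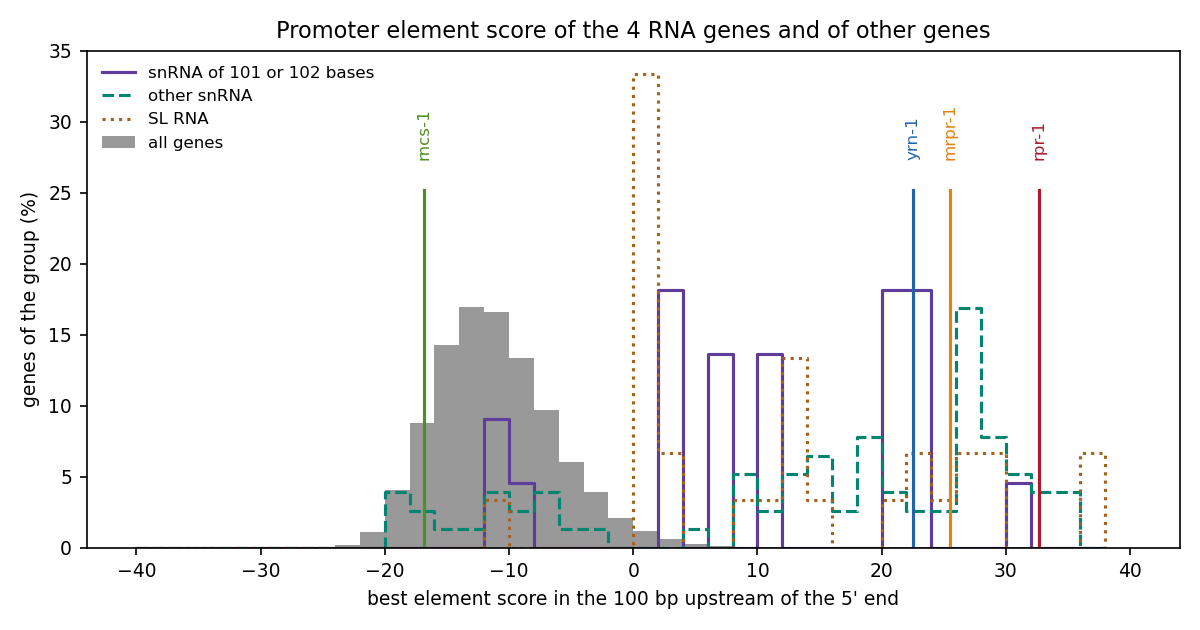
Best score of the 25 bp element in the 100 bp upstream of each gene, as the percentage of genes of a group in each score interval, with all genes in grey and snRNA and SL RNA genes as outlines. Vertical lines mark the 4 genes: rpr-1, mrpr-1 and yrn-1 score from 22.5 to 32.6 among the higher-scoring snRNA genes. The score of rncs-1, -16.9, lies in the lower part of the range of all genes, 90.4% of which reached or passed it.

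The motif TATATA, a form of the TATA box, began 30 bp upstream of rpr-1, 34 bp upstream of mrpr-1 (with an overlapping copy at 32 bp) and 30 bp upstream of yrn-1. It was searched on both strands, on which it reads the same, between 45 and 15 bp upstream. The search was added after the sequences had been seen, and 2.43% of all genes had the motif there. It was found at none of the 30 SL RNA genes, at 2.60% of the 77 other snRNA genes and at 16 of the 22 snRNA genes of 101 or 102 bases, all 8 with an optimal peak among them. The gap between the end of the element and the motif was 15 bp at rpr-1 and yrn-1 and 13 bp at mrpr-1. At each of those 8 snRNA genes of 101 or 102 bases it was also 15 bp, with the element beginning at -71 bp; these 8 genes were among those the matrix was learned from. The gap was also 15 bp at 8 of the 14 snRNA genes of that length without an optimal peak, so the spacing was not limited to genes with a peak. The element scores of these 8 genes without a peak were 3.08 to 10.2 against 20.2 to 30.2 at the 8 with one. This contrast is partly set by learning the matrix from the latter. Over all 14 genes without a peak the scores ran from -10.8 to 21.9. The highest was at a gene without TATATA in this window and lay within the range of the 8 with a peak. How uniquely reads could be placed at the 14 genes was not examined, so lack of a peak there does not show lack of binding. Upstream of rncs-1, TATATA was absent from this window, and the shorter motif TATAA began 15 bp before the annotated 5' end. On either strand, 13.6% of all genes had TATAA in the window.

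Of all 46881 genes with a complete window, 8 had both TATATA and an element score at least that of yrn-1, a limit set by the members themselves. They were rpr-1, mrpr-1 and yrn-1, the 101/102-base snRNA genes F54D8.7, Y9C9A.111, T08B6.62 and Y17G9A.85, which were named after their values were seen, and 1 other snRNA gene with a gap of 6 bp. The first 7 had an optimal peak within 300 bp of the 5' end and the last had none, but the choice of genes fixes most of this: the 3 members set the limit, and the 4 snRNA genes were among those with an optimal peak from which the matrix was learned. The summits of the 3 genes lay 11, 4 and 4 bp downstream of the first base of TATATA, in the order rpr-1, mrpr-1 and yrn-1. At the 8 snRNA genes of 101 or 102 bases this distance ran from -54 to 6 bp, and the summit lay downstream of that base at 1 of them. With nearly the same layout of element and motif, the summit lay nearer to the 5' end at each of the 3 genes than at 7 of the 8, as a description with no test.

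**Figure D5:**
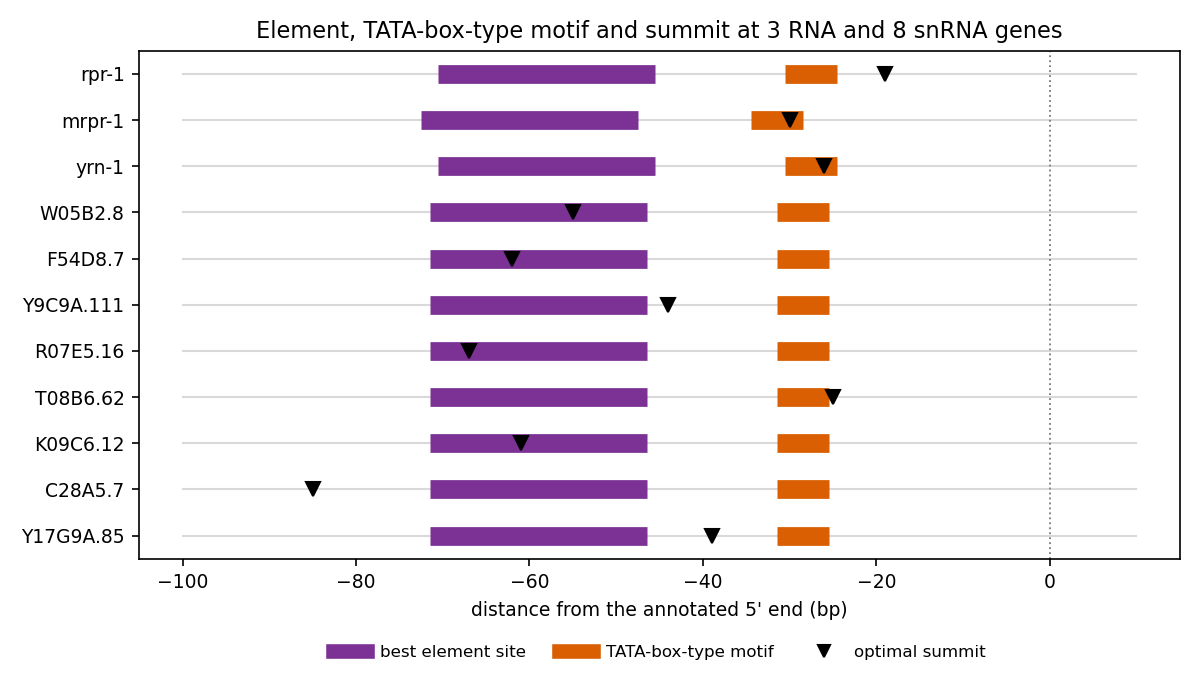
Position of the best element site (purple), the TATA-box-type motif (orange) and the optimal summit (triangle) in bp from the annotated 5' end, at rpr-1, mrpr-1 and yrn-1 and at the 8 snRNA genes of 101 or 102 bases with an optimal peak. Element and motif line up within 4 bp across the 11 genes, and the summits range from -85 to -19 bp.

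The 3' ends were read for a run of 4 T, the sequence at which RNA polymerase III is known to stop. A run of 5 T began 1 base before the last base of rpr-1, a run of 4 began 1 base before the last base of mrpr-1 and a run of 4 began 1 base after the last base of yrn-1. No such run was found at rncs-1 between 4 bases before and 30 bases after the last annotated base. The other arm of the inverted repeat of rncs-1 ran 13 bases past that base, and the true end of the transcript was not tested. In the same window 606 of 612 tRNA genes, 95.5% of the 101/102-base snRNA genes, 32.5% of the other snRNA genes and 51.0% of all genes had one, so the motif is common. The tRNA promoter's B box core, GGTTCGA, was searched on both strands from 100 bp before to 100 bp after each 5' end. It was present in none of the 4, against 63.4% of tRNA genes. Only 2.78% of all genes and 4.72% of the other non-coding RNA class had it, so its absence says little about the 4 genes. The lines that follow show 20 bases on each side of the 3' ends of mrpr-1, yrn-1 and rncs-1, with the T run in capitals.
mrpr-1, chrII:7200399-7200438: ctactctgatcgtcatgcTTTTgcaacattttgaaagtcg
yrn-1, chrIV:7499593-7499632: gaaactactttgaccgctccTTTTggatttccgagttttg
rncs-1, chrX:1012328-1012367: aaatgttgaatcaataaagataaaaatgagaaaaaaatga

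The genes most like each of the 3 by rank were taken as the nearest in log10 rank over the pooled list and both replicates' lists, 3 lists in all. For rpr-1 these were sls-2.2, an SL RNA gene (ranks 9, 12 and 8), and the non-coding RNA genes B0361.13 and F08G2.13. For mrpr-1 they were the snoRNA genes smy-2 (ranks 35, 39 and 27) and C07A9.14 and the tRNA gene Y37A1B.t1. For yrn-1 they were the tRNA gene K06A4.t1 (ranks 181, 230 and 163), the non-coding RNA gene F56F3.11 and the 101/102-base snRNA gene K09C6.12. The distances ran from 0.0288 to 0.227 in log10 rank, and likeness of rank over 3 lists that share the same reads describes height only.

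Genes for proteins that work with these RNAs had peaks at about the share of all genes. Of 12 such genes, 2 had an optimal summit within 1000 bp, where 13.2% of all genes did. Among the 7 genes for protein subunits of RNase P or RNase MRP the only one was H35B03.2, whose RefSeq product is the p30 subunit of RNase P. Its peak reached 93.7 (rank 241) with the summit at -99 bp, and it reached 42.7 (rank 190) in replicate 1 and 47.3 (rank 364) in replicate 2. The 21U-RNA gene 21ur-4106 was the only other gene that started within 1000 bp of that summit. The others (popl-1, popl-4, popl-5, popl-7, Y62E10A.24 and Y37E11AM.4) had relaxed peaks only, in at least 1 list each, and popl-7 and Y62E10A.24 overlap and share peaks. In the relaxed lists 62.7% to 69.1% of all genes had a summit within 1000 bp. The strongest was at popl-1, with 33.5 (rank 626) at -990 bp in replicate 2, where the pooled list and replicate 1 had no summit within 1000 bp. The gene for the Y RNA binding protein, rop-1, had no optimal peak and a pooled peak of 7.97 (rank 13801) 210 bp upstream.

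Among the 4 genes for proteins that bind or process double-stranded RNA, the optimal list had a summit near adr-1, which encodes an adenosine deaminase-like RNA-binding protein. Its signal was 37.6 (rank 1173), 750 bp upstream of adr-1 but only 435 bp upstream of nsf-1, which starts in the other direction. The genes dcr-1, which encodes Dicer, and rde-4, its double-stranded RNA-binding partner, had summits within 1000 bp in replicate 1 alone. The gene adr-2, for an adenosine deaminase that edits RNA, had none in any list.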

How the data were processed

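ChIP-seq of eGFP-tagged SNPC-4 in young adult worms gave 2 biological replicates, used as 1 group, with no test between samples possible. The authors deposited peak lists whose columns hold a signal value, a −log10 q value and a summit, per the files deposited with each sample. Those files state that the relaxed lists were made from alignments with a control and the optimal list from the pooled and both replicates' lists. The aligner, peak caller and IDR threshold are not given in the sources used here. Lists on ce11 were used, and those on ce10 were not used here. The deposited −log10 q was constant in the optimal list and tied for 3097 pooled peaks, so ranks used signal. Depth is unknown, and no interval is given.

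Summit offsets were counted from the annotated 5' end (Ensembl annotation of WBcel235), where 0 is the first base of the gene. A replicate matched a peak when its own summit, within its strongest 1781 peaks, lay within 200 bp; summit distances and signal ratios used the nearest summit within 200 bp in the whole relaxed lists. Sequences came from the RefSeq genome of the same assembly. A score is the sum of the matrix's log odds. The scripts used Python 3.11.15, numpy 2.4.6 and pandas 2.3.3, and were tested on simulated peaks and sequences. No statistical test was made.

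The members, gene lists and rules were chosen with earlier results of these data known. Named genes were the 4 members, genes holding or next to them, the 12 protein genes, genes of signal recognition particle RNA, and the 3 genes nearest in rank to each member. The TATATA search, the group of snRNA genes of 101 or 102 bases, the inverted repeats, the choice of signal recognition particle RNA genes by symbol and the search for both motifs were added after the data were seen.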

Additional observations from a re-analysis of the deposited data

How the results depend on the processing

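The count of 3 genes with an optimal peak held at 300 and 500 bp from the gene, at 300 and 1000 bp from the 5' end, by overlap of intervals, in the stronger 50% of the list, in the pooled list cut to the same length and in either replicate alone; it was 4 in the whole pooled relaxed list. The peaks of rpr-1, mrpr-1 and yrn-1 had the same signal and rank in the optimal and pooled lists. In the pooled list the peaks around rncs-1 ranked 10150 or lower. The pooled list cut to the same length thus could not give another count and is no separate check. All 3 genes were matched in both replicates at 100, 200 and 500 bp and in the whole lists. Leaving out a replicate moved the rank of rpr-1 between 7 and 13, of mrpr-1 between 29 and 40 and of yrn-1 between 166 and 216, and the summit between -20 and -15, -30 and -25, and -25 and -23 bp. By −log10 q all 3 genes shared the mean rank of 1549, because these values are tied. The midpoints of the intervals lay at -8.5, -18.5 and -22.5 bp. With the element learned from snRNA genes alone, 0.100% of genes reached rpr-1. By mismatches to the word of 8 bases, 0.166% reached rpr-1, 1.86% mrpr-1 and 81.8% both yrn-1 and rncs-1. The value at yrn-1 thus depends on whether the matrix or the word is used. No paired analysis was possible because there is 1 group and the result comes from no test. The optimal list's signal is a single pooled value, so it has no replicate error.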

Other observations

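Of the 5 genes for the RNA of the signal recognition particle, which polymerase III also reads, none had an optimal summit within 1000 bp. In the pooled list 3 did, and in each replicate 4 did. These counts are near the shares of all genes, which were 13.2% in the optimal list, 66.8% in the pooled list, 62.7% in replicate 1 and 69.1% in replicate 2. The strongest in the pooled list was a peak of 27.2 (rank 2378) at 412 bp downstream of the 5' end of srpr-1.1, below the lowest optimal signal of 31.1. The other pooled peaks were 15.8 (rank 5921) at 220 bp downstream of srpr-2.1 and 7.39 (rank 14980) at 50 bp downstream of srpr-3. In replicate 1 the strongest was instead at srpr-2.1, with 8.05 (rank 4337), and srpr-1.1 had 6.15 (rank 6397); in replicate 2 srpr-1.1 led with 21.4 (rank 1649).

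At rncs-1 the longest perfect inverted repeat between the sequence within 200 bp of the 5' end and that within 200 bp of the 3' end was 49 bp, from 75 to 27 bp upstream of the annotated 5' end, paired with a stretch that ran 13 bases past the annotated 3' end. The corresponding repeats were 10 bp at rpr-1, 8 bp at mrpr-1 and 11 bp at yrn-1.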
